A study of Sus scrofa with 22 samples.

Results

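Of 27376 genes counted in foliate taste papillae and organoids of the pig, 9 core genes of Hedgehog signalling are described here across 22 RNA-seq libraries. The members are a fixed list taken by gene symbol, namely the ligand gene SHH, the receptor gene PTCH1, the co-receptor genes BOC and GAS1, the transducer gene SMO, the transcription factor genes GLI2, GLI3 and GLI1, and the inhibitor gene HHIP. All 9 were present in both gene annotations used, the second of which named 29850 genes, and their levels are given as CPM, the counts of a gene scaled to library size. The study compared organoids with the tissue they came from and organoids in different media.

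The libraries fell into 6 groups. Passage 1 organoids (5 libraries) were grown in the medium LPM from the papillae of 5 pigs, and the foliate papillae of those same 5 pigs (5 libraries), taste bud bearing ridges of the lateral tongue, were sequenced directly. Organoids in LPM without FGF10 (3 libraries) stood beside organoids in complete LPM (3 libraries), and both sets were marked as biological replicates. Organoids finished in CQ (3 libraries) were started in LPM at day 0, moved to CQ at day 10 and held there until day 16 or 17, and stood beside organoids kept in LPM throughout (3 libraries). Per the labels' protocols LPM held human SHH protein at 100 ng/ml and FGF10 at 100 ng/ml. It also held the proteins FGF2, EGF, noggin, R-Spondin-2, Wnt3a and insulin, and the small molecules Y-27632, SB202190, A-83-01, CHIR99021, forskolin, prostaglandin E2, nicotinamide and N-acetyl-cysteine. Apart from FGF10 in the group that lacked it, these agents are shared by the passage 1 organoids and both groups of the FGF10 experiment. The names LPM and CQ are not spelled out in the sources used here, and neither the composition of CQ nor the medium recipe of its experiment is given there. The culture day of the LPM libraries in the CQ experiment is not recorded, so the day cannot be told apart from the medium. Papillae were extracted with a different RNA kit from the organoids, and effects of kit and of culture cannot be told apart. Nothing in the labels says whether the libraries of the CQ experiment came from separate cultures or pigs, so its p-values measure the spread between these libraries alone.

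Hedgehog ligands bind PTCH1, which otherwise keeps SMO inactive, and active SMO acts through the primary cilium to turn GLI2 and GLI3 from repressors into activators. GLI1, PTCH1 and HHIP are themselves targets of the GLI proteins in many tissues of the mouse, so their transcripts are widely used as readouts of the pathway. In the mouse tongue SHH is made by precursor cells within taste buds, and cells around the bud, in the epithelium and in the connective tissue core, carry the receptors and GLI factors.

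Library totals were 21.79 to 27.77 M counts in passage 1 organoids and 17.04 to 20.71 M in papillae, 19.64 to 23.45 M without FGF10 and 20.77 to 25.23 M in LPM beside it, and 14.67 to 16.0 M in CQ and 19.62 to 26.01 M in LPM beside it. The CQ libraries stood apart in how their counts were spread. Genes with a mean of 10 to 30 counts had a median ratio of variance to mean of 12.73 in CQ, against 1.13 to 4.82 in the other groups, and only 2.06 to 4.83% of detected genes in CQ had 1 to 5 counts, against 14 to 16.7% elsewhere. Low counts in CQ are therefore less precise than their size implies, and a group of CQ libraries at 0 was given a floor of 38.2 counts, or 0.81 CPM, in place of the 3 counts used for other groups. In the tests on papillae and passage 1 organoids 67.5% of 16311 genes were called at an adjusted p under 0.05 (32.4% higher and 35.1% lower in organoids). Removal of FGF10 gave 1.78% of 14262 genes (0.582% higher, 1.2% lower) and CQ 47.9% of 13827 genes (23.1% higher, 24.8% lower). The 95% intervals of fold changes come from the edgeR fit and include the spread between libraries, whereas floors and the 1 interval of a count ratio (for FOXF2) cover counting error only.

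**Figure D1:**
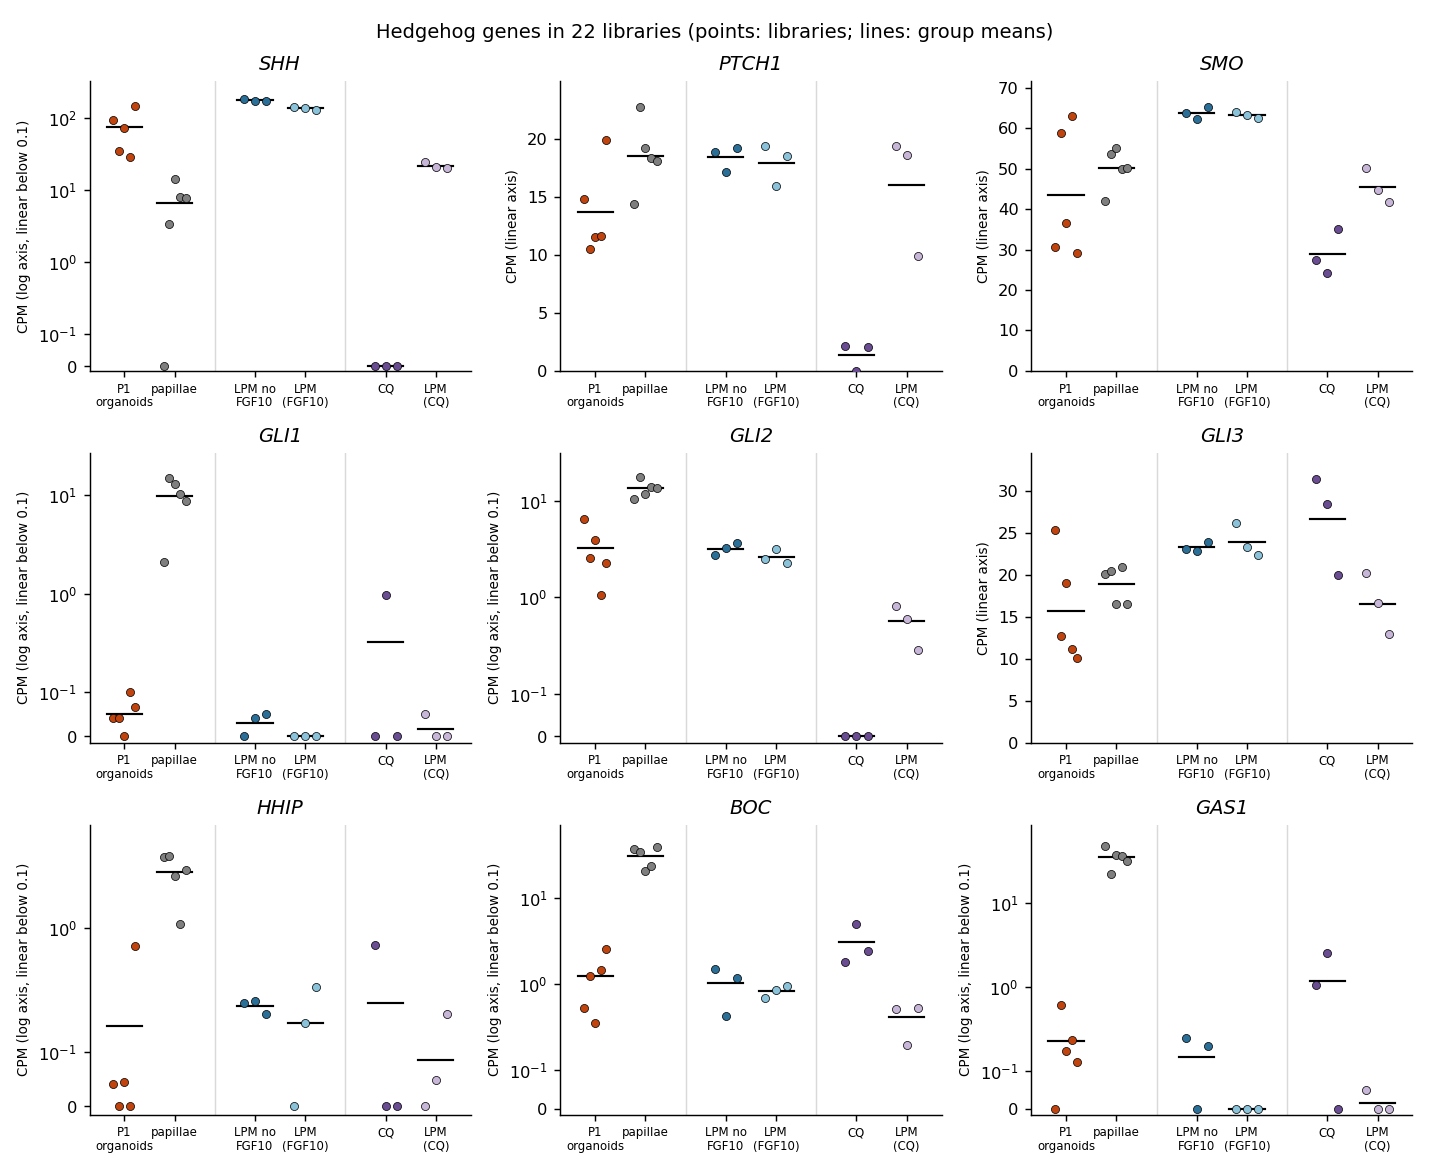
CPM of the 9 Hedgehog genes in each of the 22 libraries, with 1 panel per gene, 1 point per library and a line at each group mean; axes are linear for PTCH1, SMO and GLI3 and logarithmic above 0.1 CPM for the others. SHH lies at 29.0 to 145 CPM in passage 1 organoids and at 0 to 14.2 CPM in papillae, GLI1 exceeds 1 CPM in papillae alone, and PTCH1 stays between 9.93 and 22.7 CPM in every group except CQ.

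Passage 1 organoids carried more transcript of the ligand gene and far less of the co-receptor genes, of GLI2 and of the readout genes GLI1 and HHIP than the papillae of the same pigs. SHH was 11.2-fold higher, whereas GLI1 was 169-fold, GAS1 147-fold, BOC 24.5-fold, HHIP 16.3-fold and GLI2 4.16-fold lower. PTCH1, SMO and GLI3 were not called. Of the 9 genes, all of which were tested, 1 was called higher and 5 lower, against the 32.4% higher and 35.1% lower over all genes tested. Their median log2 fold change was -2.06, and that of all genes -0.01. In a bulk library, fewer cells of a type and less RNA per cell cannot be told apart.

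SHH, the secreted ligand (chromosome 18, 2546202 to 2555484, plus strand), had 93.5, 34.3, 73.0, 29.0 and 145 CPM in the organoids of pigs 1 to 5, against 0, 3.40, 14.2, 8.0 and 7.63 CPM in their papillae. Every organoid library lay above every papilla library, and the papilla of pig 1 had no SHH count at all. The means were 74.9 ± 47.4 CPM in organoids and 6.65 ± 5.36 CPM in papillae (SD, n = 5 each), with a log2 fold change of 3.49, SE 0.81 and an adjusted p of 0.0026 by edgeR's quasi-likelihood test. With limma-voom the log2 fold change was 4.62, and the call held under each of 18 alternatives.

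PTCH1, the receptor (chromosome 10, 26627165 to 26703225, plus strand), had 14.8, 10.5, 11.5, 11.6 and 19.9 CPM in the organoids of pigs 1 to 5 and 14.4, 22.7, 19.2, 18.3 and 18.1 CPM in their papillae. The groups overlapped, and PTCH1 was higher in the organoids of pigs 1 and 5 and lower in those of the other 3 pigs. Its fold change of organoids over papillae was 0.736, with a 95% interval of 0.543 to 0.997 and an adjusted p of 0.0689 by edgeR. PTCH1 was called lower with RLE scaling (adjusted p = 0.037), with DESeq2 (0.0246), with limma-voom and quality weights (0.0229), without the papilla of pig 1 (0.0481) and when the pig 5 organoids were left out (0.00987), and its adjusted p ranged from 0.00987 to 0.514 in 18 alternatives.

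The co-receptors fell to near 0 in organoids. GAS1, a lipid-anchored protein that presents SHH to PTCH1 (chromosome 10, 28509168 to 28511554, plus strand), had 0, 0.615, 0.176, 0.238 and 0.131 CPM in organoids of pigs 1 to 5, against 46.6, 21.7, 37.1, 36.1 and 31.4 CPM in papillae. No organoid library reached 1 CPM while no papilla fell below 20 CPM, and the log2 fold change was -7.20 (SE 0.55, edgeR adjusted p = 8.86e-07), or -7.89 without the organoids of pig 2. BOC, an immunoglobulin-family co-receptor (chromosome 13, 146625218 to 146703165, minus strand), had 0.529, 1.23, 0.352, 1.46 and 2.56 CPM in organoids and 36.3, 34.1, 20.3, 23.4 and 38.9 CPM in papillae. It was lower in the organoids of 5 of 5 pigs, with a log2 fold change of -4.61 (SE 0.48, adjusted p = 7.66e-06), or -5.24 by limma-voom with quality weights. BOC shares 3318 bases, 19.3% of its counted length, with the opposite-strand gene CFAP44, and strand was ignored in counting, so reads there cannot be told apart. CFAP44 averaged 1.05 ± 0.93 CPM in organoids and 8.23 ± 0.672 CPM in papillae (SD, n = 5 each).

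SMO, the membrane protein that PTCH1 holds in check (chromosome 18, 19450730 to 19478796, minus strand), spanned 29.1 to 63.0 CPM in organoids and 42.0 to 55.0 CPM in papillae. The groups overlapped, with SMO higher in the organoids of 2 pigs and lower in those of 3. Its fold change was 0.868 (95% interval 0.62 to 1.22, edgeR adjusted p = 0.429), and with library size alone, a scaling that moved the median of all genes to 0.28 on the log2 scale and the calls to 6771 higher and 4592 lower, its direction turned (log2 fold change 0.09). Within the 5 organoid cultures SMO ran in the opposite order to SHH. It had 29.1 CPM in pig 5 and 30.5 CPM in pig 1, where SHH was highest, 36.5 CPM in pig 3, and 58.7 CPM in pig 2 and 63.0 CPM in pig 4, where SHH was lowest. This order was noted after the values were seen and was not tested. How many other genes run in the same or the opposite order was not counted.

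The GLI genes parted. GLI3, which acts mainly as a repressor (chromosome 18, 52403463 to 52697906, plus strand), spanned 10.1 to 25.3 CPM in organoids and 16.5 to 20.9 CPM in papillae, overlapping groups with a fold change of 0.828 (95% interval 0.57 to 1.2, edgeR adjusted p = 0.342, and 0.0491 without the organoids of pig 1). GLI2, the main activator in the mouse (chromosome 15, 30312528 to 30580272, minus strand), had 6.47, 2.54, 3.96, 1.06 and 2.26 CPM in organoids and 10.5, 17.5, 11.9, 14 and 13.7 CPM in papillae. Each organoid library lay below each papilla, and the log2 fold change was -2.06 (SE 0.40, adjusted p = 0.000834).

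GLI1, an activator that is itself induced by the pathway (chromosome 5, 22736325 to 22747421, plus strand), had 1, 1, 0, 3 and 2 read pairs in the organoid libraries of pigs 1 to 5, against 34, 297, 257, 163 and 131 in their papillae. In CPM these were at most 0.102 in organoids and 2.10, 14.9, 13, 10.3 and 8.77 in papillae, so the groups were far apart, and the lowest papilla was that of pig 1, which also lacked SHH counts. The log2 fold change was -7.40 (SE 0.66, edgeR adjusted p = 2.82e-06). HHIP, a membrane-anchored protein that sequesters the ligand (chromosome 8, 83583735 to 83678368, minus strand), had 1, 0, 1, 0 and 22 read pairs in organoids and 61, 77, 53, 17 and 44 in papillae. Pig 5 supplied nearly all of the organoid counts, and the log2 fold change was -4.02 (SE 0.92, adjusted p = 0.00234), -4.97 with the pig as a block and -6.78 without the organoids of pig 5. HHIP shares 451 bases (4.87% of its length) with the opposite-strand gene LOC100525237, and GLI1 76 bases (1.29%) with ARHGAP9. Reads there cannot be told apart. LOC100525237 averaged 0.434 ± 0.427 CPM in organoids and 0.567 ± 0.204 CPM in papillae, and ARHGAP9 0.439 ± 0.257 and 4.67 ± 0.916 CPM.

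**Figure D2:**
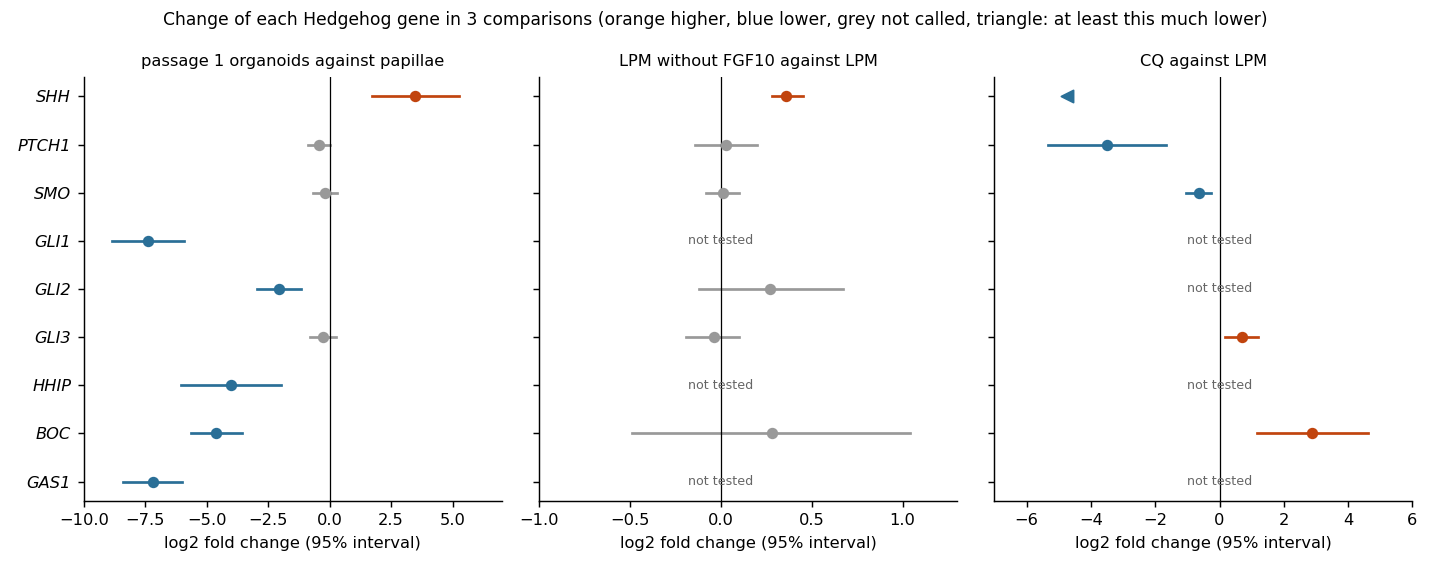
Log2 fold change of each Hedgehog gene (points, with 95% intervals as lines) in the 3 comparisons, where positive means higher in the group named first; orange is called higher, blue called lower, grey not called, and the triangle is a bound. In passage 1 organoids SHH lies at 3.49 and GLI1 and GAS1 at -7.40 and -7.20, without FGF10 SHH alone is called, at 0.36, and in CQ SHH and PTCH1 are lower while BOC is higher at 2.88.

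Markers of connective tissue, vessels, nerve and muscle moved with these differences. Over 14 fibroblast and matrix genes the summed level was 22.5 to 91.8 CPM in organoids and 2490 to 8190 CPM in papillae, with 13 of 13 tested genes lower in organoids. DCN, a matrix proteoglycan of fibroblasts, was at 0 to 0.0985 CPM in organoids and 225 to 480 CPM in papillae, and PDGFRA, a fibroblast receptor, averaged 0.920 ± 0.494 CPM in organoids and 13 ± 4.56 CPM in papillae. Smooth muscle genes summed to 33.3 to 69.8 CPM in organoids and 1160 to 1670 CPM in papillae (6 of 6 lower), endothelial genes to 21 to 114 and 363 to 542 CPM (6 of 7 lower), Schwann cell and nerve genes to 1.68 to 10.2 and 337 to 477 CPM (7 of 7 lower) and skeletal muscle genes to 0.529 to 0.919 and 243 to 7730 CPM (7 of 7 lower). ACTA2 of smooth muscle was at 0 to 0.123 CPM, SOX10 of Schwann cells at 0 to 0.244 CPM and PECAM1 of endothelium at 1.83 to 2.91 CPM in organoids. The smooth muscle sum in organoids was mostly TAGLN, which averaged 47.7 CPM there and 263 CPM in papillae. The endothelial sum in organoids was mostly KDR, which averaged 47.4 ± 36.7 CPM there and 25.9 ± 2.43 CPM in papillae. KDR, the endothelial gene not called lower, was thus 1.83-fold higher in organoids, without a call (edgeR adjusted p = 0.0728). Both groups carried epithelial transcripts, with a summed level of 5450 to 7510 CPM in organoids and 8190 to 10900 CPM in papillae over 8 genes. Of these 8 genes 4 were called higher and 2 lower in organoids. EPCAM, an epithelial adhesion molecule, averaged 483 ± 43.6 CPM in organoids and 132 ± 54.6 CPM in papillae, and KRT8, a keratin of taste bud cells, 2160 ± 809 and 340 ± 127 CPM. KRT5, a keratin of basal cells, was 4.83-fold lower and TP63, a basal cell transcription factor, 1.82-fold lower in organoids. Of 9 tested taste bud genes 3 were higher and 4 lower, the lower ones being TRPM5, PLCB2, ENTPD2 and TAS1R3. Immune genes summed to 40.5 to 114 CPM in organoids and 46.3 to 78.1 CPM in papillae, and of 6 tested 2 were higher (CD68 and AIF1) and 2 lower (PTPRC and CD3E, both at 0 counts in organoids). The part of these cell types in the Hedgehog differences was not tested.

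**Figure D3:**
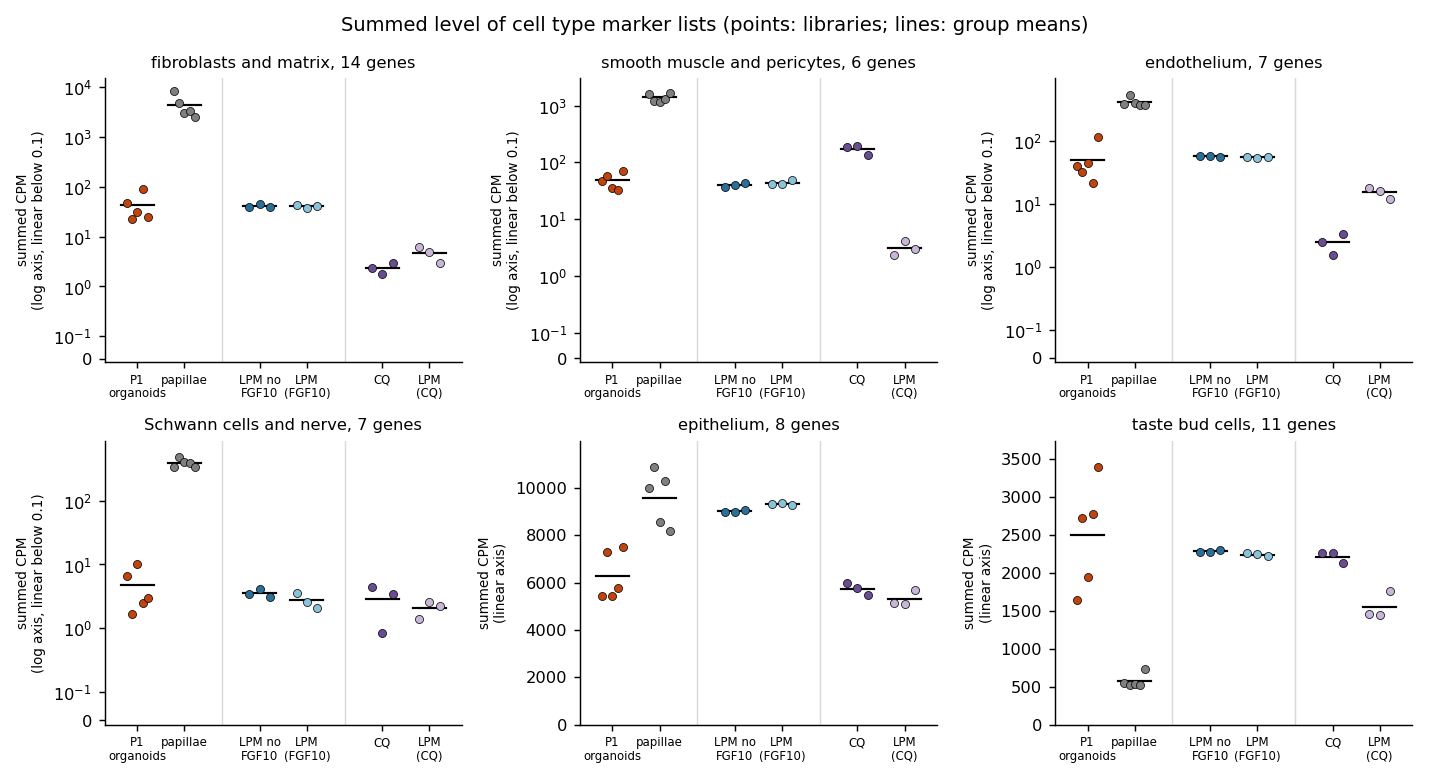
Summed CPM of 6 marker lists in each of the 22 libraries (points) with group means (lines); axes are linear for epithelium and taste bud cells and logarithmic above 0.1 CPM for the others. Fibroblast markers lie at 22.5 to 91.8 CPM in passage 1 organoids and 2490 to 8190 CPM in papillae, while epithelial markers lie at 5100 CPM or more in every library.

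Beyond the 9 genes, 53 further Hedgehog pathway genes in 5 lists were counted, of which 51 were tested in this comparison. In organoids 12 were higher and 26 lower, or 74.5% called against 67.5% over all genes, with a median log2 fold change of -0.61. Among 7 tested genes of other ligands and of ligand release, 5 were lower, led by SCUBE1, whose product binds released ligand (62.4-fold, log2 -5.96, or -7.06 without the organoids of pig 5), the second ligand gene DHH (32.3-fold, with 14 counts in organoids and 332 in papillae) and SCUBE2, a carrier of released ligand (6.28-fold). HHAT, the acyltransferase that lipidates the ligand, was higher at 5.24 ± 0.969 CPM in organoids and 3.26 ± 0.321 CPM in papillae (1.60-fold, edgeR adjusted p = 0.00992). All 5 tested receptors and surface partners were lower, among them the co-receptor CDON, related to BOC, at 0.306 ± 0.21 CPM in organoids and 17.0 ± 3.70 CPM in papillae (52.9-fold, adjusted p = 7.94e-07), and the glypican GPC6 (79.3-fold, log2 -6.31, or -7.69 without the organoids of pig 5).

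For cilium, kinase and target genes the counts of calls stand beside 32.4% of all genes called higher and 35.1% called lower. Of 17 cilium and transduction genes 3 were higher in organoids, among them the kinesin gene KIF3A by 1.40-fold and FUZ by 1.26-fold, and the FUZ call was lost with RLE scaling (adjusted p = 0.0514) and without the papilla of pig 1 (0.056) or pig 4 (0.0628). A further 6 were lower, including the intraflagellar transport genes IFT88 (2.04-fold) and IFT172 (1.59-fold) and GPR161, a ciliary receptor that restrains the pathway (2.95-fold). Of 10 kinase and turnover genes 7 were higher, such as DYRK2 (2.34-fold), GSK3B (1.96-fold) and PRKACA, a catalytic subunit of protein kinase A (1.61-fold). GRK2 was lower by 1.53-fold, a call lost with library size alone (edgeR adjusted p = 0.138). Of 12 genes described as GLI targets in other tissues 9 were lower and 1 higher. HAND2 had 0 counts in organoids and 939 in papillae, at least 475-fold lower, MYCN had 0 and 113, at least 57.2-fold lower, and FOXF2 had 3 and 515, a ratio of 261 (95% interval 88.7 to 1270) and a fitted log2 fold change of -7.67, or -8.58 without the organoids of pig 2. FOXF2 and HAND2 are transcription factors of mesenchyme, and the fibroblast markers above were lower in the same libraries. The part of mesenchymal cells in the values of these target genes was not tested. CCND2, a D-type cyclin, was higher at 38.8 ± 4.21 CPM in organoids and 7.01 ± 1.34 CPM in papillae (5.53-fold, adjusted p = 2.7e-07).

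**Figure D4:**
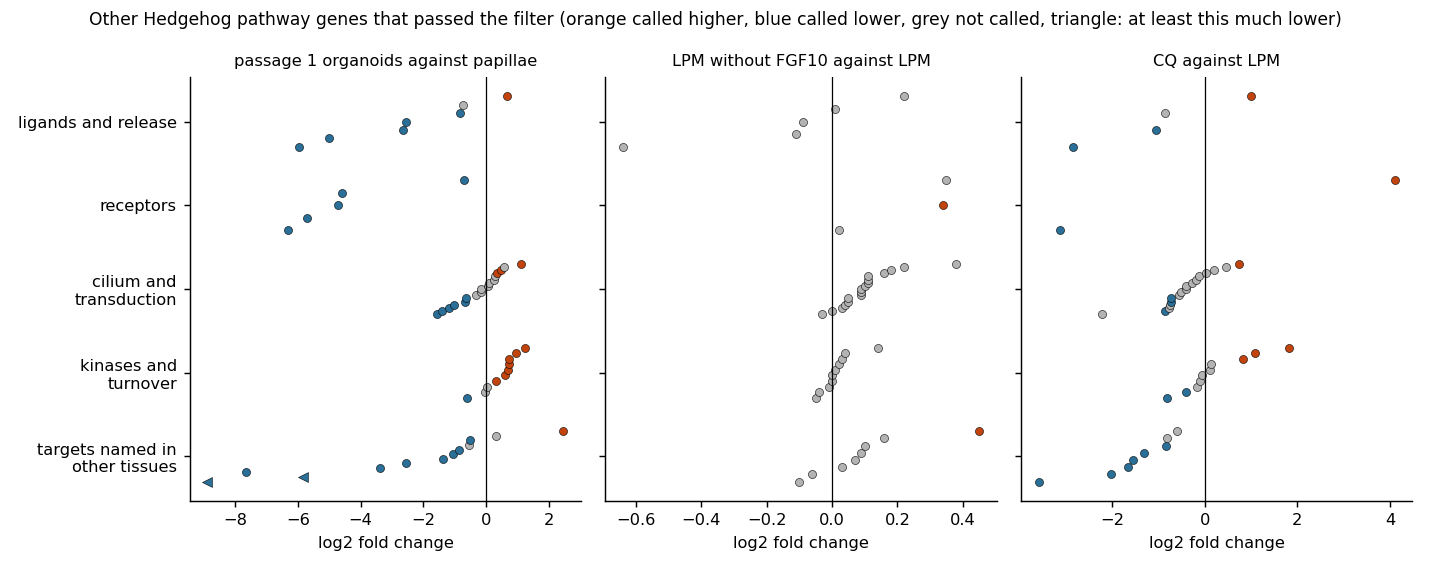
Log2 fold change of each further Hedgehog pathway gene that passed the filter on low counts, in 5 lists and 3 comparisons, where positive means higher in the group named first; orange is called higher, blue called lower, grey not called, and triangles are bounds. Receptors and several targets lie far below 0 in passage 1 organoids, kinases lie mostly above it, and without FGF10 only GPC4 (0.34) and SFRP1 (0.45) are called.

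The FGF10 experiment asked what removal of this ligand from the medium changed. SHH was the only one of the 9 genes called, 1.29-fold higher without FGF10, where 0.582% of all genes tested were called higher. It had 180, 173 and 170 CPM without FGF10, against 142, 135 and 129 CPM in LPM. The groups did not overlap, and the spread within each was small (174 ± 5.04 and 135 ± 6.33 CPM, SD, n = 3 each). The log2 fold change was 0.36 (SE 0.04, adjusted p = 5.06e-06 by edgeR), and it stayed between 0.33 and 0.40 and was called in each of 14 alternatives. The ratio of variance to mean was 1.13 in LPM and 1.23 without FGF10, against 4.82 in the passage 1 organoids of 5 pigs. Titles of the FGF10 libraries name no pig, so the p-values of this experiment measure the spread between these libraries alone.

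Other members differed little or were too low to test. PTCH1 had 18.9, 17.1 and 19.2 CPM without FGF10 and 19.4, 15.9 and 18.5 CPM in LPM, overlapping groups with a fold change of 1.02 (95% interval 0.906 to 1.15, edgeR adjusted p = 0.944). SMO was at 63.7 ± 1.43 CPM without FGF10 and 63.2 ± 0.649 CPM in LPM (fold 1.01, interval 0.945 to 1.07, adjusted p = 0.968), and GLI3 at 23.3 ± 0.547 and 24.0 ± 1.98 CPM (fold 0.97, interval 0.877 to 1.07, adjusted p = 0.88). The directions of these 3 genes and of BOC turned when single libraries were left out. GLI2 had 2.74, 3.24 and 3.62 CPM without FGF10 and 2.49, 3.18 and 2.25 CPM in LPM (fold 1.21, interval 0.921 to 1.59, adjusted p = 0.621), and BOC averaged 1.03 ± 0.546 and 0.833 ± 0.14 CPM (fold 1.21, interval 0.714 to 2.05, adjusted p = 0.847). These intervals leave room for differences of the size seen in SHH for GLI2 and BOC, whereas for PTCH1, SMO and GLI3 the interval ended below 1.29-fold.

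GLI1, HHIP and GAS1 did not pass the filter. GLI1 had 0, 1 and 1 read pairs without FGF10 and 0, 0 and 0 in LPM, HHIP 5, 6 and 4 without FGF10 and 0, 4 and 7 in LPM, and GAS1 5, 0 and 4 without FGF10 and 0, 0 and 0 in LPM. In summed counts GAS1 without FGF10 was 3.27-fold above the floor of 3 counts set for LPM, untested, with 1 library at 0 in the group without FGF10. That ratio takes the counts without FGF10 as exact. The readout gene GLI1 was thus at or near 0 in all 6 libraries and HHIP had at most 7 read pairs, whereas PTCH1, also a readout, was at 15.9 to 19.4 CPM. Both media held SHH protein, and its part in these values was not tested. Of 43 further pathway genes tested, 2 were called (4.65%, against 1.78% of all genes). GPC4, a surface glypican, was at 17.4 ± 1.09 CPM without FGF10 and 13.7 ± 1.41 CPM in LPM (1.26-fold, edgeR adjusted p = 0.0486), and SFRP1, a secreted Wnt antagonist listed among targets, at 10.7 ± 1.05 and 7.80 ± 0.846 CPM (1.37-fold, adjusted p = 0.0342). Both were near the threshold, and over 14 alternatives GPC4 spanned adjusted p values of 0.00848 to 0.349 and SFRP1 of 0.00332 to 0.165. The GPC4 call was lost with DESeq2 (0.0799) and limma-voom (0.0519), and without LPM library 2 or 3 or library 1 or 3 lacking FGF10, and the SFRP1 call with the replicate block (0.0509) and without LPM library 1 or 3 or library 1 or 3 lacking FGF10. Among the most abundant genes of lists without a call, DISP1, which releases the ligand, was at 29.1 ± 1.35 CPM without FGF10 and 28.8 ± 0.893 CPM in LPM, SUFU, which restrains GLI proteins, at 88.7 ± 2.65 and 86.8 ± 1.64 CPM, and CSNK1A1, a GLI kinase, at 707 ± 23.5 and 725 ± 12.8 CPM. Fibroblast markers summed to 38.8 to 44.0 CPM without FGF10 and 37.5 to 43.1 CPM in LPM, and DCN had 0 counts in each of the 6 libraries. These sums were mostly FBN1 (31.6 ± 2.66 CPM without FGF10 and 30.6 ± 2.14 CPM in LPM) and VIM (7.59 ± 0.16 and 7.8 ± 1.5 CPM).

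Finishing the organoids in CQ was compared with LPM throughout. SHH was not detected in CQ and PTCH1 was 11.4-fold lower on 65 counts in CQ, SMO was 1.57-fold lower, and GLI3 and BOC were called higher. Of the 9 genes 5 passed the filter and 4 did not. Among those tested 3 were called lower, where 24.8% of all genes were, and 2 higher, where 23.1% were. Nearly 1 in 2 of all genes was called in this comparison.

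SHH had 0, 0 and 0 CPM in CQ, against 24.2, 21.1 and 20.0 CPM in LPM, or 474, 431 and 494 read pairs. All 3 CQ libraries lay at 0, which with the CQ floor allows up to 0.81 CPM over the group, so SHH was at least 26.7-fold lower (edgeR adjusted p = 6.61e-06). PTCH1 had 32, 0 and 33 read pairs in CQ, against 381, 380 and 245 in LPM, or 1.41 ± 1.22 and 16.0 ± 5.27 CPM (SD, n = 3 each). The groups did not overlap, and the log2 fold change was -3.51 (SE 0.81, adjusted p = 0.00658), or -4.92 by limma-voom. SMO had 27.5, 24.1 and 35 CPM in CQ and 50.2, 44.7 and 41.7 CPM in LPM, again without overlap (log2 fold change -0.65, SE 0.17, adjusted p = 0.0105).

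The genes called higher in CQ were less firm. BOC had 27, 82 and 38 read pairs in CQ and 10, 4 and 13 in LPM, or 3.07 ± 1.70 and 0.411 ± 0.186 CPM. Its groups did not overlap, and its log2 fold change was 2.88 (SE 0.76, edgeR adjusted p = 0.0127). Its level in CQ was still far below the 20.3 to 38.9 CPM of papillae. The call was lost without LPM library 1 (0.0555) or 2 (0.0788). With a minimum of 50 counts in 3 libraries BOC was not tested. CFAP44, which overlaps BOC, averaged 1.01 ± 0.414 CPM in CQ and 0.791 ± 0.516 CPM in LPM. GLI3 had 31.4, 28.4 and 20.0 CPM in CQ and 20.2, 16.6 and 12.9 CPM in LPM. The lowest CQ library lay just below the highest LPM library, and the log2 fold change of 0.69 (SE 0.23, adjusted p = 0.0352) was not called without CQ library 1 (0.117) or 2 (0.0894), without LPM library 2 (0.108) or 3 (0.11), or without the filter on low counts (0.0606).

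The remaining members were near or below the CQ floor and were not tested. GLI2 had 0, 0 and 0 read pairs in CQ and 16, 12 and 7 in LPM, a level in LPM that the CQ libraries would not reliably show. GLI1 had 0, 16 and 0 in CQ and 1, 0 and 0 in LPM, HHIP 11, 0 and 0 in CQ and 0, 1 and 5 in LPM, and GAS1 16, 41 and 0 in CQ and 1, 0 and 0 in LPM. In CQ the counts of GLI1 and HHIP came from 1 library each and those of GAS1 from 2, in amounts of 11 to 41, and no library of either group reached 1 CPM of GLI1 or HHIP.

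Among 41 further pathway genes tested in CQ 6 were higher and 14 lower (48.8%, against 47.9% of all genes), with a median log2 fold change of -0.52 against -0.07. Of 8 target genes 6 were lower, including the cyclin gene CCND1 at 7.71 ± 2.24 CPM in CQ and 92.9 ± 8.36 CPM in LPM (12.0-fold, edgeR adjusted p = 2.88e-06), the Notch ligand gene JAG2 (4.05-fold) and FOXE1 (2.50-fold). GPC4 was 8.68-fold lower, with 1.56 ± 0.857 CPM in CQ and 13.6 ± 0.858 CPM in LPM. LRP2, a large endocytic receptor that binds SHH, was 17.1-fold higher on 108 counts in CQ and 8 in LPM. Its adjusted p was 0.00553 by edgeR, and 0.0521 without LPM library 2. Its mean in LPM was 0.131 CPM, and low counts in CQ are less precise than their size implies. With a minimum of 50 counts in 3 libraries LRP2 was not tested. Among release genes SCUBE2 was 7.23-fold and SCUBE3 2.07-fold lower while DISP1 was 1.98-fold higher, and the SCUBE3 call was lost without LPM library 1 (0.0672) or 2 (0.0694). The DISP1 call was lost without LPM library 2 (0.0639) or 3 (0.0731) and without CQ library 2 (0.0714) or 3 (0.0789).

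For the genes that act inside the cell, counts of calls stand beside 23.1% of all genes higher and 24.8% lower in CQ. Of 17 cilium and transduction genes tested 1 was higher, 3 were lower and 13 were not called. SUFU was at 31.4 ± 1.95 CPM in CQ and 57.5 ± 11.1 CPM in LPM (1.83-fold lower, edgeR adjusted p = 0.00231). RAB23, a GTPase that restrains the pathway in the mouse, was 1.67-fold higher at 57.0 ± 4.81 and 34.1 ± 2.48 CPM. IFT172 was 1.65-fold lower, but its call was lost with any of the 3 LPM libraries or CQ library 1 left out (adjusted p up to 0.103) and with library size alone (0.0663). Of 10 kinase and turnover genes 3 were higher, DYRK2 by 3.51-fold, the ubiquitin ligase gene ITCH by 2.12-fold and GSK3B by 1.76-fold, and 2 were lower, PRKACB by 1.76-fold and CSNK1A1 by 1.32-fold.

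Marker lists in the CQ experiment did not all move alike. Fibroblast genes summed to 1.77 to 3.02 CPM in CQ and 3.0 to 6.28 CPM in LPM, and DCN was at 0 in all 6 libraries. The smooth muscle list summed to 137 to 197 CPM in CQ and 2.3 to 4.07 CPM in LPM, which was almost all TAGLN (172 ± 33.2 and 2.11 ± 0.482 CPM), while ACTA2 reached 0.441 CPM at most in CQ and 0.49 CPM in LPM. Endothelial genes summed to 1.52 to 3.34 CPM in CQ and 12.0 to 17.7 CPM in LPM. That sum in LPM was mostly KDR (0 CPM in CQ and 9.16 ± 2.49 CPM in LPM) and PECAM1 (0.562 ± 0.641 and 5.52 ± 0.418 CPM). CDH5 had 0 counts in both groups, and VWF (0.679 and 0.362 CPM) and CLDN5 (1.21 and 0.068 CPM) averaged higher in CQ. Epithelial genes summed to 5480 to 5970 CPM in CQ and 5100 to 5710 CPM in LPM. Of the 8 epithelial genes 1 was called higher and 4 lower in CQ. EPCAM averaged 283 ± 13.2 CPM in CQ and 571 ± 49.9 CPM in LPM, KRT8 2120 ± 62.7 and 1320 ± 187 CPM, and SOX2, a transcription factor of taste progenitors, 63.8 ± 8.20 and 192 ± 14.8 CPM. The part of these shifts in the Hedgehog values was not tested.

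Across all 6 groups the 9 genes followed a few patterns. SHH was highest without FGF10 (174 CPM), then in LPM beside it (135 CPM), in passage 1 organoids (74.9 CPM), in LPM of the CQ experiment (21.8 CPM), in papillae (6.65 CPM) and in CQ (0 CPM). LPM and passage 1 organoids overlapped, as did papillae and CQ, and the other neighbours in this order did not. In the CQ experiment SHH in LPM lay below each of the 3 LPM libraries of the FGF10 experiment, although these experiments were scaled separately and counted on different annotations. PTCH1 spanned group means of 13.6 to 18.5 CPM in 5 groups, each overlapping the next, and stood clear of CQ (1.41 CPM). SMO was at 63.7 and 63.2 CPM in the FGF10 experiment, which overlapped each other, and at 50.2 CPM in papillae, 45.5 CPM in LPM of the CQ experiment, 43.6 CPM in passage 1 organoids and 28.9 CPM in CQ, each overlapping its neighbour.

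GLI3 ran from 26.6 CPM in CQ through 24.0 and 23.3 CPM in the FGF10 experiment to 18.9 CPM in papillae, 16.6 CPM in LPM of the CQ experiment and 15.7 CPM in passage 1 organoids, and the only gap between neighbours was that above papillae. GLI1, GLI2, HHIP, BOC and GAS1 were each highest in papillae with no library of another group reaching them. GLI2 was next in passage 1 organoids, LPM without FGF10 and LPM of the FGF10 experiment, at 2.64 to 3.26 CPM with overlap, then in LPM of the CQ experiment at 0.563 CPM.

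Levels were also divided by counted gene length, as a rough comparison between genes. These lengths ran from 1374 bases for SHH to 17201 bases for BOC, and whether they match the transcripts present was not tested. On this scale SHH led in passage 1 organoids at 54.5 ± 34.5 CPM per kb, followed by SMO at 12.2 ± 4.51 CPM per kb and PTCH1 at 1.54 ± 0.433 CPM per kb. In papillae GAS1 at 14.5 ± 3.80 and SMO at 14.1 ± 1.41 CPM per kb came first, and SHH was at 4.84 ± 3.90 CPM per kb (SD, n = 5 each). Without FGF10 SHH reached 127 ± 3.67 CPM per kb, against 98.4 ± 4.61 CPM per kb in LPM. In CQ SMO led at 8.10 ± 1.55 CPM per kb with GLI3 next at 1.57 ± 0.349 CPM per kb, whereas in LPM beside it SHH was at 15.8 ± 1.57 and SMO at 12.8 ± 1.2 CPM per kb.

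Genes with the most similar pattern were sought over all 22 libraries by the root mean square difference of centred log2(CPM + 0.5), where a smaller value means a closer pattern. For SHH the closest were SEMA7A (1.12), CYP24A1 (1.14), SLC9A2 (1.15), PGF (1.22) and ALOX15 (1.23), against a median of 2.99 over 14706 genes. CYP24A1, which encodes the enzyme that degrades active vitamin D, averaged 54.9 CPM in passage 1 organoids, 3.17 CPM in papillae, 214 CPM without FGF10, 197 CPM in LPM beside it, 0 CPM in CQ and 48.0 CPM in LPM beside it. For PTCH1 they were GPC4 (0.48), ARHGAP27 (0.50), PORCN (0.51), ELANE (0.53) and ACAP1 (0.53), with a median of 1.43. For GLI1 they were PTPRCAP (0.36), ACKR4 (0.40), MYCT1 (0.42), RUNX1T1 (0.42) and FOXD3 (0.44), each below 0.4 CPM in every organoid group, with a median of 1.86. Over the 17 organoid libraries alone SHH was closest to KDR (0.61), CYP24A1 (0.66), A4GALT (0.82), SULT2B1 (0.83) and UPP1 (0.87), with a median of 2.93. These libraries share media, annotation and experiment within groups, so the values describe the set and are not a test.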

How the data were processed

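RNA sequencing of 22 pig libraries was analysed. The deposited values are raw counts, whole numbers of read pairs for every gene, made by the authors with featureCounts 2.0.3 (16 libraries) or 2.0.6 (6 libraries of the CQ experiment), per the file headers. Per those headers strand was ignored, pairs with several mapping places were left out, and a pair lying over more than 1 gene was counted for all of them. The submitters' processing notes also name FastQC 0.11.9, STAR 2.7.10b, MultiQC 1.14 and DESeq2. The coordinates of all 9 genes equal those of the RefSeq table for Sscrofa11.1. An entry with no gene name in the CQ files (0.326 to 0.477% of counts) was dropped.

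Each comparison was fitted on its own groups by the quasi-likelihood test of edgeR 4.0.16 (R 4.3.3), after filterByExpr and TMM scaling. P-values were adjusted by Benjamini and Hochberg across every gene tested, with calls below 0.05. Levels are CPM with TMM factors computed per experiment. The fit was tested on simulated counts. Alternatives were RLE scaling, library size alone, other filters, DESeq2 1.42.0, limma 3.58.1 voom, a replicate block and leaving out each library, and the CQ floor was chosen after seeing the data. It is 3 times the ratio of variance to mean, taken as an estimate of reads per molecule. Passage 1 organoids and papillae carry pig numbers in the labels, which pairs them. Correlations of deviations were 0.0337 to 0.0901 within the same pig and -0.149 to 0.0892 between different pigs, so the pairing rests on the labels. Members, gene lists and the rule for named genes were chosen with earlier results of these data known. That rule names all 9 members, up to 3 called genes per list and direction by smallest p (otherwise the most abundant gene), 5 genes of similar pattern and fixed cell type markers, and some genes it names are not reported here.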

Additional observations from a re-analysis of the deposited data

Results flagged for a closer look

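HHIP in passage 1 organoids had 1 library far from the others, that of pig 5 at 0.722 CPM (22 read pairs), where the next highest was at 0.044 CPM. The gap was 0.939 of the range over the 5 libraries. Chance alone marks about 1 in 20 groups in this way, and 18 groups of member values were examined. The papilla of pig 5 had 44 read pairs of HHIP. Because HHIP overlaps LOC100525237, reads in the shared bases cannot be told apart, and their part in this value was not tested. With that organoid library left out, the log2 fold change of HHIP was -6.78, against -4.02 with it.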

How the results depend on the processing

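For the 9 genes, 300 of 320 values under an alternative kept their direction and side of the threshold, 8 lost a call, 6 gained one and 6 reversed. The reversals were SMO in passage 1 organoids with library size alone (log2 fold change 0.091) and 4 genes without FGF10 when 1 library was left out. In that comparison leaving out a library gave log2 fold changes of -0.050 to 0.092 for PTCH1, with a second reversal at -0.0021, -0.0055 to 0.027 for SMO, -0.089 to 0.026 for GLI3 and -0.11 to 0.68 for BOC. Of 702 values for the other named genes 32 lost a call, and DISP1 without FGF10 reversed without LPM library 1 (-0.017) or without libraries 1 (-0.017) or 3 (-0.0024) of the group lacking FGF10, within -0.017 to 0.049. Genes called without FGF10 numbered 254, with 429 when no filter was used and 125 to 294 with 1 library left out. Members called higher in CQ numbered 2, with 1 under no filter, the replicate block or a minimum of 50 counts, and 0 to 3 with 1 library left out. Members called lower in CQ ranged over 3 to 4, and genes called in passage 1 organoids over 10443 to 11577 in the same way. With a floor of 3 counts SHH would be at least 340-fold lower in CQ. With the pig as a replicate block no member call changed in passage 1 organoids. Correlations between samples of the same replicate number were -0.0538 to 0.067 in the FGF10 experiment and -0.0194 to 0.0307 in the CQ experiment. Those between different numbers spanned -0.115 to 0.131 and -0.0429 to 0.042. The ranges overlap, so these values cannot show whether the numbers pair the samples. As numbers alone, the block gave 234 and 6120 genes called, BOC lost its call in CQ (adjusted p = 0.0787) and SFRP1 without FGF10 (0.0509). The spread of low counts in the CQ libraries, which set the floor of 38.2 counts, limits what can be said of GLI1, GLI2, HHIP and GAS1 there. The causes of these changes were not tested.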

Other observations

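Genes of taste transduction varied among the papillae. TRPM5, an ion channel of taste transduction, had 8.15, 16.4, 35.3, 26.3 and 13.5 CPM in the papillae of pigs 1 to 5, and PLCB2, a phospholipase of the same cascade, 8.89, 24.6, 35.5, 30.4 and 15.4 CPM. Both were lowest in pig 1, where SHH was at 0 CPM, and highest in pig 3, where SHH was highest at 14.2 CPM. These genes were chosen after their values were seen, and other taste markers had another order, with SOX2 highest in the papilla of pig 1 (72.3 CPM) and KRT8 lowest in that of pig 3 (213 CPM). In passage 1 organoids TRPM5 was at 1.16 to 2.99 CPM and PLCB2 at 0.443 to 2.55 CPM.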
